A study of Mus musculus with 30 samples.

Results

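Heat shock proteins are molecular chaperones that bind unfolded or newly made proteins, keep them from clumping and help them to fold. HSP70 proteins hold client chains with the help of J-domain partners and HSP110 exchange factors, HSP90 matures signalling proteins, HSP60 and HSP10 form a folding chamber in mitochondria, and HSP47 looks after collagen in the endoplasmic reticulum. Heat, oxidants and other stresses that unfold proteins activate heat shock factor HSF1, which binds heat shock elements in front of many of these genes. In liver the inducible members are known to vary with body temperature, feeding and time of day.

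The 10 genes followed were chosen by name and found on the array through the RefSeq transcript given for each probe. They are Hspa1a and Hspa1b (inducible HSP70), Hspa8 (constitutive HSP70), Hsph1 (HSP110), Dnajb1 (HSP40), Hsp90aa1 (the inducible cytosolic HSP90), Hspb1 (a small heat shock protein), Hspd1 and Hspe1 (HSP60 and HSP10) and Serpinh1 (HSP47). Out of 17017 named genes and 41174 probes on the array, these 10 genes had 15 probes. Of these, 14 were bright enough to be tested, and all 10 genes had at least 1 tested probe.

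Livers came from 14 exposed mice, instilled through the trachea with 0.162 mg of the nanoparticle carbon black Printex 90, and from 16 control mice. The particles were given in 40 µl of saline with lavage fluid, followed by 150 µl of air, and the labels give the control treatment only as none. All animals were female C57BL/6 mice bought at 5 to 6 weeks of age, and the time between instillation and sampling is not given in the sources used here. The series text speaks of 6 mice per group, fewer than the arrays analysed here, with 1 array per mouse. On all 30 arrays Cy5 marked the liver and Cy3 a universal reference from mouse, so every value is a log2 ratio of liver over reference and no dye was swapped. By their animal numbers the mice form 3 runs per group, with 4, 5 and 5 exposed mice and 6, 5 and 5 control mice. What such a run stands for is not given in the labels.

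Median signals per array were 104 to 196 in Cy5 and 43 to 113 in Cy3. In Cy5, 42.8% to 79.2% of probes stood well above background. The arrays lay on 9 slides, of which 7 held both groups. Exposed mice always took positions 3 and 4 of a slide and control mice positions 1 and 2, so position and group cannot be told apart. All 4 mice of exposed run 1 and all 6 of control run 1 took the first of the 2 positions of their group, and all of run 3 the second. Control animals 547, 598 and 599 stood apart in several heat shock genes, as described with the pairs of genes below.

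Promoter windows from RefSeq (GRCm38.p6) were given for 8 of the 10 genes, and those of the genes that the results turn on are shown first. The letters searched were GAANNTTC and TTCNNGAA, each made of 2 units of the heat shock element and the same on both strands. One or both stood within 250 bases before the start of 12.8% of 32851 windows. A longer form with a further unit, GAANNTTC followed after 2 bases by GAA, or its reverse complement, overlaps the shorter ones and stood in 0.466%. Capitals mark every match, and each stretch is printed 5′ to 3′ on the strand named with it and ends just before the gene's start.
Hspa1b, chr17:34959239-34959488, minus strand: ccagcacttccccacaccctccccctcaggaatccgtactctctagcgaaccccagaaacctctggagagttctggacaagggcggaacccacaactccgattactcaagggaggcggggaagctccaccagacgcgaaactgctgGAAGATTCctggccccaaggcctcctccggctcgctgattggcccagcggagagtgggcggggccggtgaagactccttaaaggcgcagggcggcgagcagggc
Hsph1, chr5:149636337-149636586, minus strand: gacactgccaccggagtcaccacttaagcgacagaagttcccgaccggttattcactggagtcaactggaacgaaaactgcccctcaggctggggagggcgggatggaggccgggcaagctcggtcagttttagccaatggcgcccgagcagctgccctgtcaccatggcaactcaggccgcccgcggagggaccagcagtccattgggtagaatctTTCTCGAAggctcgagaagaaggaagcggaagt
Hspe1 and Hspd1, chr1:55087933-55088147, plus strand: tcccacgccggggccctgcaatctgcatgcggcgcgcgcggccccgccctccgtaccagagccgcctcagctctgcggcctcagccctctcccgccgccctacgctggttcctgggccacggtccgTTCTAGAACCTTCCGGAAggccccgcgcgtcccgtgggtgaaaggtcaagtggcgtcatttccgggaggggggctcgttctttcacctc
Hspb1, chr5:135887669-135887918, plus strand: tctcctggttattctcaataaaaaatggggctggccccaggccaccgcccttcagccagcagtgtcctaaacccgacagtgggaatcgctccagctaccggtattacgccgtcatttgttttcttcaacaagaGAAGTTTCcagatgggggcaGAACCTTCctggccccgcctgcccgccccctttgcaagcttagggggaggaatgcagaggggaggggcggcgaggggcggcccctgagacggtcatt
Serpinh1, chr7:99353240-99353489, minus strand: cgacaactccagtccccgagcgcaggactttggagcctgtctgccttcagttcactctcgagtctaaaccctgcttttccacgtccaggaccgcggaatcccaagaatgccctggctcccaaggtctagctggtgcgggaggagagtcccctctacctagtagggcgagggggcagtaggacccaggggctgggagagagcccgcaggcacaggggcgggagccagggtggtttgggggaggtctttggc

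The windows of 6 of the 8 genes held a match. Hspe1 and Hspd1 start back to back on opposite strands with 215 bases between the starts shown, and this stretch holds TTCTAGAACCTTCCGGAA, 18 bases in which the longer form lies on both strands. Hspa1b and Hspa1a each hold GAAGATTC, whose first base lies 104 bases before the start, and 247 of their 250 bases are identical. Hsph1 holds TTCTCGAA, 33 bases before the start shown, and Hspb1 holds GAAGTTTC and GAACCTTC, 117 and 97 bases before its start. The windows of Serpinh1 and Dnajb1 hold neither form. These matches describe letters and were not tested as binding sites.

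Near-identity also touches the probes. The probe used for Hspa1b (A_52_P52803) carries the Hspa1b transcript NM_010478 in the older design file, read on 5 arrays, and the Hspa1a transcript NM_010479 in the newer one, read on 25. It is called Hspa1b here, and values of these paralogs are uncertain as to which gene they measure. A second such probe exceeded background on only 6 of 30 arrays and was left out of the tests.

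The first comparison asks whether particles in the lung were followed by a heat shock response in liver. None of the 10 genes passed the test between all exposed and all control mice. Of the tested probes, 0.0169% passed in this comparison (4 of 23607, limma with slide as a random block, adjusted p under 0.05). Serpinh1 alone had an unadjusted p under 0.05, against 12.2% of all probes. The 10 differences lay between -0.31 and 0.11 log2, with 8 below 0 and a median of -0.09.

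Hspa1a, an HSP70 gene that is nearly silent in unstressed cells, averaged -1.04 ± 0.30 in exposed livers and -0.98 ± 0.48 in control livers (SD, n = 14 and 16). Its log2 ratios ran from -1.56 to -0.54 with a median of -1.02 in exposed mice, and from -1.67 to -0.08 with a median of -1.08 in control mice. The groups overlapped throughout, and the highest values belonged to control mice. Hspa1b averaged -0.48 ± 0.23 in exposed livers and -0.31 ± 0.46 in control livers (SD, n = 14 and 16), with a difference of -0.20 (95% interval -0.45 to 0.06). Hspa8, the HSP70 that cells make all the time, differed by -0.02 (95% interval -0.26 to 0.22). Its exposed values ran from -1.51 to -0.58 and its control values from -1.71 to -0.41.

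Hsph1, the exchange factor that resets HSP70, averaged -0.87 ± 0.36 in exposed livers and -0.61 ± 0.60 in control livers (SD, n = 14 and 16). Its difference of -0.31 ± 0.16 (SE) did not pass (adjusted p = 0.462, limma). Exposed mice were lower on 6 of the 7 slides that held both groups. The clock phase score, a mean of circadian genes, averaged 0.51 ± 0.69 in exposed mice and -0.44 ± 0.92 in control mice (SD, n = 14 and 16). With it as a covariate the difference of Hsph1 was -0.08. Because the mean score differed between the groups, this fit cannot tell the score from exposure. The part of time of day was not tested. Dnajb1, which hands clients to HSP70, differed by 0.01 (95% interval -0.20 to 0.23), and Hsp90aa1 by -0.14 (95% interval -0.38 to 0.11). Both groups overlapped for both genes.

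Hspd1 was the steadiest member, with a difference of -0.03 (95% interval -0.16 to 0.09), and its partner Hspe1 differed by -0.10 (95% interval -0.27 to 0.08). Hspb1, which holds unfolded proteins and steadies actin, differed by 0.11 (95% interval -0.17 to 0.40). Serpinh1 averaged -3.82 ± 0.47 in exposed livers and -3.50 ± 0.28 in control livers (SD, n = 14 and 16). Its difference of -0.31 ± 0.12 (SE) did not pass after adjustment (adjusted p = 0.312, limma). Without the mice of exposed run 1 the difference was -0.14.

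**Figure D1:**
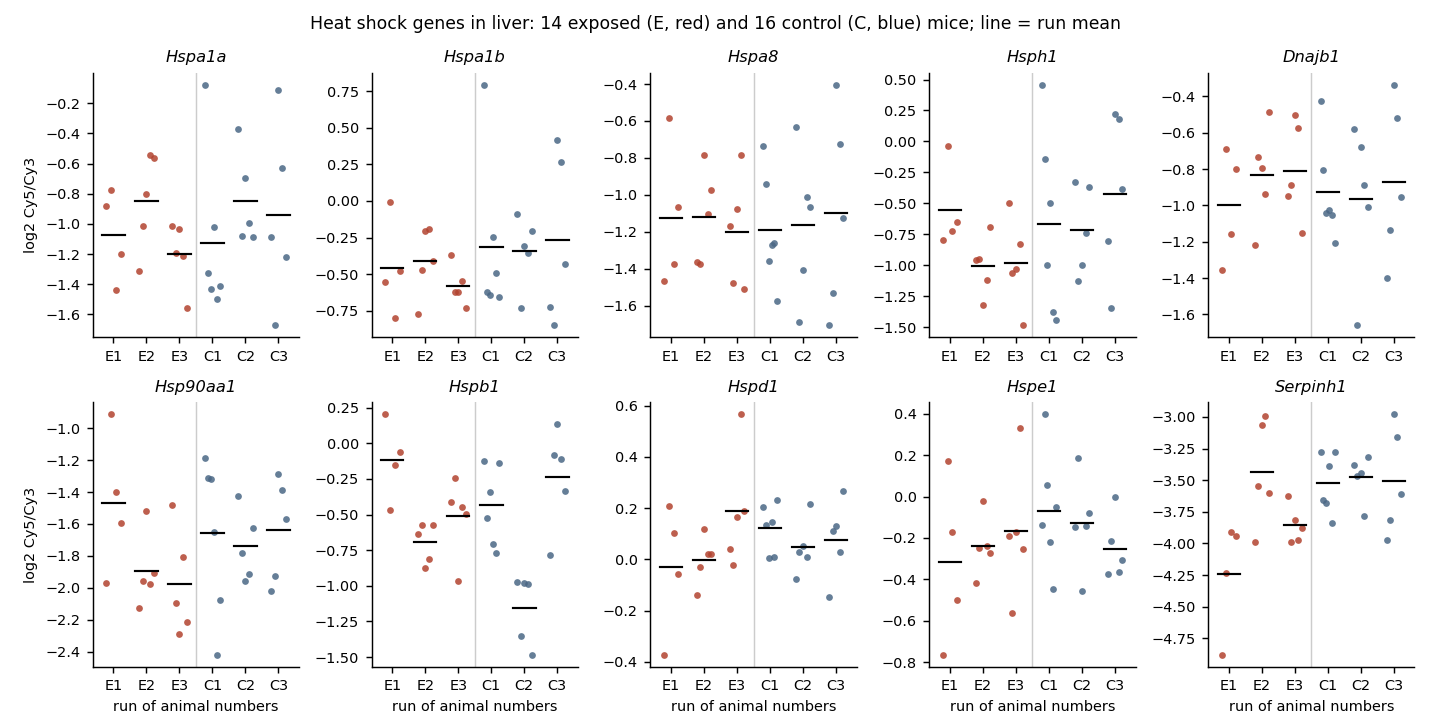
Log2 Cy5/Cy3 of the 10 heat shock genes in each mouse, by run of animal numbers, with exposed runs (E1 to E3, red, 14 mice) left of control runs (C1 to C3, blue, 16 mice) and a line at each run mean. The groups overlap in every gene, Serpinh1 is low in E1 and Hspb1 is low in C2.

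Where a gene had a second tested probe, that probe did not pass either. The difference was -0.11 for Hspa1a, 0.13 for Hspa8, 0.06 for Dnajb1 and 0.13 for Hspd1. Across the 30 arrays both probes of a gene correlated with r of 0.84 for Hspa1a, 0.81 for Hspa8, 0.61 for Dnajb1 and 0.57 for Hspd1. For Hspa8 and Hspd1 the probes differed in the sign of the difference. In the Cy3 channel, which holds the same RNA everywhere, none of the 10 members passed (0% of probes passed, and 1275 of 23607 had an unadjusted p under 0.05, limma), and no member had an unadjusted p under 0.05.

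The second comparison takes each exposed run against the mean of the 3 control runs, which the 3 comparisons share. In exposed run 1, 2 of the 10 members passed: Hspb1 was higher and Serpinh1 lower. Of all tested probes 4.8% passed in this comparison (1.6% higher and 3.19% lower). In exposed run 2, where 0.0169% of probes passed, and in exposed run 3, where 0.131% did, none of the 10 passed, with 0 and 1 members at an unadjusted p under 0.05 (limma). Hsph1 differed by -0.02, -0.42 and -0.43 in exposed runs 1, 2 and 3 and Hsp90aa1 by 0.18, -0.21 and -0.32, and none of these passed. Hspa8 lay between -0.07 and 0.03 and Dnajb1 between -0.10 and 0.08 over the 3 runs. In exposed run 1 the second probes gave 0.33 for Hspa8 (adjusted p = 0.365) and 0.29 for Dnajb1 (adjusted p = 0.222, limma), so the probes of Dnajb1 differed in sign there.

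**Figure D2:**
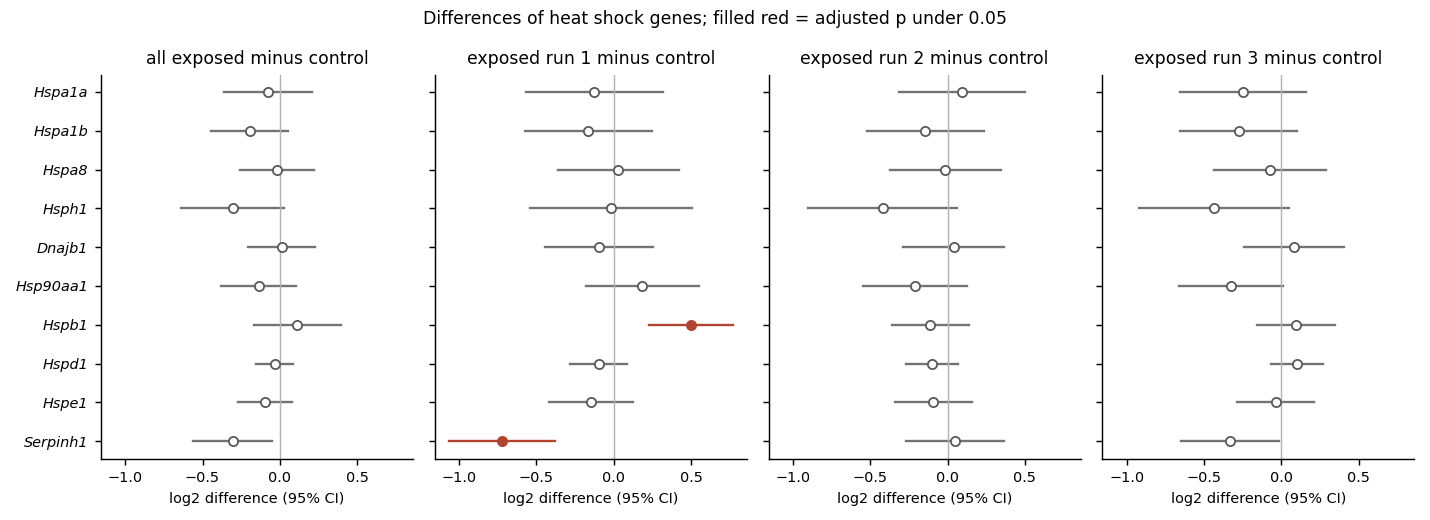
Log2 differences of the 10 genes with 95% confidence intervals, for all exposed mice and for each exposed run against control (limma). Only Hspb1 (0.50) and Serpinh1 (-0.72) in exposed run 1 are filled, which marks an adjusted p under 0.05 over all probes.

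Serpinh1, the collagen chaperone, had log2 ratios of -4.88, -4.24, -3.91 and -3.94 in the 4 mice of exposed run 1. The 16 control mice lay between -3.97 and -2.98 with a median of -3.45. All 4 mice of the run lay low, and 15 of the 16 control mice lay above all of them. The difference was -0.72 ± 0.17 (SE), or 1.65-fold lower in exposed run 1 (adjusted p = 0.0114, limma). In exposed run 2 the ratios were -3.99, -3.55, -3.06, -2.995 and -3.60, and in exposed run 3 they were -3.62, -3.99, -3.81, -3.97 and -3.88. Run 2 overlapped the control mice, and run 3 lay in their lower part with 1 mouse just below the lowest of them. Exposed run 1 differed from exposed run 2 by -0.77 ± 0.21 (SE, adjusted p = 0.0243, limma), where 5.94% of probes passed.

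The call was lost under 7 of 22 other settings. These were array position as an added term (-0.60, adjusted p = 0.151), slide as a fixed block (-0.67, adjusted p = 0.0762), median centring (-0.51, adjusted p = 0.395), Cy5 alone (-0.65, adjusted p = 0.0601), the clock phase score as a covariate (-0.64, adjusted p = 0.0643) and control run 1 as the control (-0.70, adjusted p = 0.133, limma), which counts as 2 settings because it is also the control run of the same order. It was also lost without animal 176 (-0.51, adjusted p = 0.123) or animal 177 (-0.70, adjusted p = 0.0531, limma).

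Several collagen genes were lower together with Serpinh1 in exposed run 1. Of 17 genes for collagens and the proteins that process or bind them 5 passed, all lower, where 4.55% of named genes passed in that direction, and the median over the list was -0.14. Col3a1, a fibrillar collagen, was -0.98 ± 0.19 (SE, adjusted p = 0.00323) and Col4a1, of basement membranes, was -0.54 ± 0.10 (SE, adjusted p = 0.0016, limma). Col1a1 was -0.61 ± 0.18 (SE, adjusted p = 0.0433) and Col5a1 was -0.38 ± 0.11 (SE, adjusted p = 0.0427, limma). The other gene was Sparc, a matrix protein that binds collagen, at -0.41 ± 0.12 (SE, adjusted p = 0.0498, limma), named after its values were seen. Animal 176 weighed on these calls: without it Col1a1 was -0.37 (adjusted p = 0.322), Col5a1 -0.25 (adjusted p = 0.301) and Sparc -0.22 (adjusted p = 0.387), and none of these passed (limma). Col3a1 (-0.68, adjusted p = 0.0499) and Col4a1 (-0.57, adjusted p = 0.00564, limma) passed without it and without any other single animal. For Col4a1, control run 1, also in the first position only, had the lowest control mean (-1.30, against -0.97 and -1.17 in runs 2 and 3). For Col3a1, control run 3 had the lowest (-3.33, against -3.04 and -2.92 in runs 1 and 2). Over 22 other settings Col3a1 and Col4a1 each lost the call in 3, against 13 for Col1a1, 14 for Col5a1 and 15 for Sparc. Over all exposed mice none of the 17 passed. Over the 30 arrays Col3a1 was also the gene most like Serpinh1 of 12179 named genes (r = 0.92), followed by Gcat (r = 0.88), an enzyme of threonine breakdown.

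**Figure D3:**
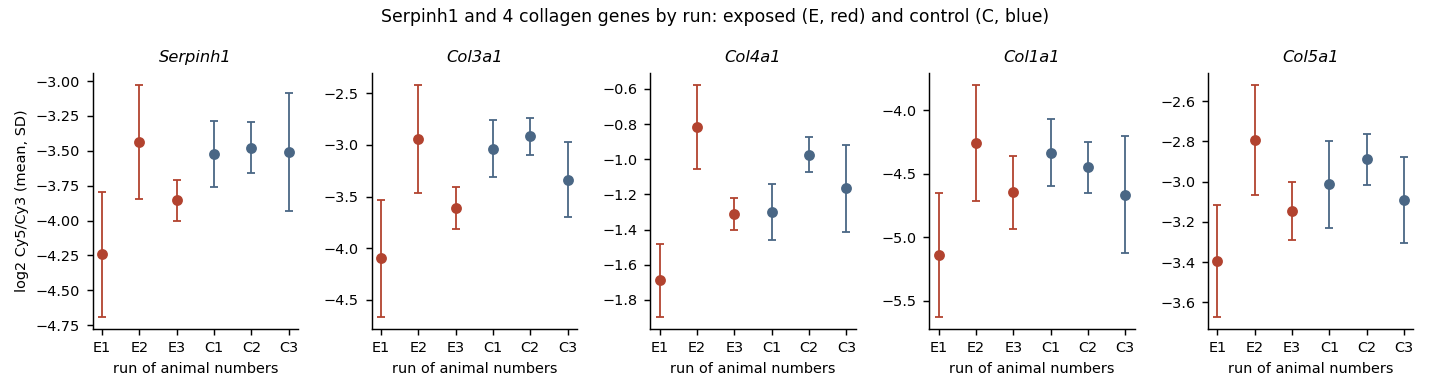
Mean log2 Cy5/Cy3 (points) with SD (bars) of Serpinh1 and 4 collagen genes by run, exposed runs (E1 to E3, red) left of control runs (C1 to C3, blue). In all 5 genes E1 has the lowest mean. All 5 are shown because they passed as lower in E1, so a low E1 follows from that choice. Of the 17 genes in the collagen list, 12 did not pass and are not shown.

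Collagen and Serpinh1 RNA come largely from stellate cells in liver, and in bulk tissue fewer such cells and less RNA per cell cannot be told apart. Of 8 stellate cell markers, 1 passed in exposed run 1, lower: Pdgfrb, the receptor for platelet-derived growth factor, at -0.44 ± 0.11 (SE, adjusted p = 0.0212, limma). Of the 8, 5 lay below 0 and 3 above it in that run, with a median of -0.15. Over all exposed mice 7 lay above 0 and only Pdgfrb below it, with a median of 0.15, and none passed. The mean log2 ratio over the list ran from 0.88 to 1.79 in exposed run 1 and from 0.89 to 1.89 in control mice. Of 6 hepatocyte markers, 1 passed in the same direction, Ttr, the transthyretin gene (-1.14, adjusted p = 0.00802, limma). Ttr turned to 0.58 with processed Agilent signals (adjusted p = 0.109, limma), and Pdgfrb did not pass without animal 176 (-0.27, adjusted p = 0.218, limma). Markers of other liver cells were mostly lower too, where 7327 of 12189 named genes lay below 0, with a median of -0.04. Neutrophil markers went the other way, with 2 of 3 above 0 and a median of 0.27. All 8 tested for Kupffer cells, 8 for sinusoidal endothelium, 6 for lymphocytes and 5 for bile ducts lay below 0 in exposed run 1, with medians of -0.29, -0.30, -0.35 and -0.26. Of these only Spp1, the osteopontin gene of the bile duct list, passed (-0.59, adjusted p = 0.0462, limma), and it was at -0.37 without animal 176 (adjusted p = 0.33, limma). The mean over the bile duct list ran from -2.83 to -2.57 in exposed run 1 and from -2.59 to -2.05 in control mice, and that over the lymphocyte list from -1.59 to -1.46 in exposed run 1 and from -1.47 to -0.78 in control mice. Pdgfrb, Ttr and Spp1 were named after their values were seen. The part of cell numbers in the Serpinh1 result was not tested.

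Hspb1 had log2 ratios of 0.20, -0.47, -0.15 and -0.06 in the 4 mice of exposed run 1, against -1.48 to 0.13 with a median of -0.62 in the 16 control mice. Of the control mice 9 lay below all of exposed run 1 and 7 lay within its range. In exposed run 2 the ratios were -0.64, -0.58, -0.88, -0.81 and -0.57, and in exposed run 3 they were -0.41, -0.24, -0.96, -0.45 and -0.50, so both runs lay within the control range. The difference was 0.50 ± 0.13 (SE), a fold of 1.41 (adjusted p = 0.0262, limma). The 3 runs of control mice themselves differed, and Hspb1 was the one member that did so (adjusted p = 0.00753 in the limma F test, where 0.089% of probes passed). With median centring it did not pass (adjusted p = 0.636, limma). Control run 2 was low, at -0.97, -1.35, -0.98, -0.99 and -1.48, with every mouse below the 6 of control run 1 and the 5 of control run 3. Control run 1 minus run 2 was 0.75 ± 0.14 (SE, adjusted p = 0.0324, with 0.0635% of probes passing) and run 2 minus run 3 was -0.94 ± 0.15 (SE, adjusted p = 0.0209, limma, with 0.0212% of probes passing).

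The call of Hspb1 in exposed run 1 depended on that control run, which was the lowest, so leaving it out had to make the difference smaller. Against control runs 1 and 3 only, a comparison chosen after the data had been seen, the difference was 0.22 (adjusted p = 0.471), and against control run 2 alone it was 1.06 (adjusted p = 0.000407, limma). Against control run 1 alone it was 0.31 (adjusted p = 0.417) and against control run 3 alone 0.12 (adjusted p = 0.787, limma). With array position as an added term it was 0.46 (adjusted p = 0.176), with the clock phase score 0.53 (adjusted p = 0.0518), with median centring 0.74 (adjusted p = 0.0542), and without animal 176, 179 or 180 it was 0.39, 0.47 or 0.50 (adjusted p = 0.17, 0.0769 and 0.0653, limma). Among the 3 exposed runs no member passed the F test (4.13% of probes passed, and 2 members had an unadjusted p under 0.05), with an adjusted p of 0.0584 for Hspb1 and 0.0652 for Serpinh1 (limma). Exposed run 1 minus run 2 was 0.61 ± 0.16 for Hspb1 (SE, adjusted p = 0.0232, limma). Exposed run 1 minus run 3 was 0.40 ± 0.16 for Hspb1, which did not pass (SE, adjusted p = 0.175, limma).

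The wider chaperone network was described by 7 lists with 82 different genes, of which 73 were tested. None passed over all exposed mice or in exposed runs 2 and 3. In exposed run 1, 7 of 73 were lower (9.59%, where 4.55% of named genes were lower) and none was higher, and the median over the lists was -0.03 against -0.04 over all named genes. The largest was Hspa14, an HSP70 that works at the ribosome, at -0.40 ± 0.06 (SE, adjusted p = 0.000483, limma). Its log2 ratios were -1.80 to -1.49 in exposed run 1 and -1.44 to -0.94 in control mice. Hspa14 was picked for its size, and how many other genes stood apart in this way was not counted. Of the control runs, run 1, also in the first position only, had the lowest mean (-1.30, against -1.07 and -1.18 in runs 2 and 3).

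HSP90 partners made up 4 of the 7. Ppid, a prolyl isomerase, was -0.35 ± 0.09, Unc45a, which folds myosin, was -0.28 ± 0.07, Sugt1 was -0.30 ± 0.09 and Cdc37, which brings kinases to HSP90, was -0.28 ± 0.08 (SE, adjusted p from 0.0172 to 0.0395, limma). The others were Hspa12b, at -0.30 ± 0.09, and Bag5, an HSP70 co-chaperone, at -0.30 ± 0.09 (SE, adjusted p = 0.0366 and 0.0465, limma). As with Hspa14, control run 1, in the first position only, had the lowest control mean in each of these genes. For Ppid it was -1.17, against -0.996 and -1.01 in control runs 2 and 3, and for Bag5 -0.54, against -0.42 and -0.53. Without animal 176 Hspa14 was the only one of the 7 that passed (-0.34, adjusted p = 0.00783, limma), and it alone passed without any single animal. Without animal 176 Cdc37 was -0.15 (adjusted p = 0.355), Sugt1 -0.19 (adjusted p = 0.299), Unc45a -0.19 (adjusted p = 0.21) and Bag5 -0.28 (adjusted p = 0.156, limma). Bag5 lost its call without any of 20 of the 30 animals. Cdc37 turned to 0.04 with median centring and Unc45a to 0.01 with Cy5 alone, where neither passed. Over 22 other settings the call was lost in 4 for Hspa14 and in 8 to 15 for the other genes. Of the small heat shock genes Cryab, the alpha-B crystallin gene, varied among exposed runs (adjusted p = 0.0108 in the limma F test), with means of -1.83, -1.35 and -1.60 in exposed runs 1, 2 and 3. None of the 14 J-domain genes, 9 CCT chaperonin genes or 8 heat shock factors and partners passed in any of these comparisons. Those with the smallest p over all exposed mice were Dnajb9 (-0.44) and Dnajc7 (0.11), Cct3 and Cct7 (both 0.12), and Ddit4 (0.65) and Hsf2 (0.09), with adjusted p from 0.214 to 0.412 (limma).

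The log2 ratios of the heat shock genes varied more over the 30 mice than those of most genes. The SD of the log2 ratio over the 30 mice had a median of 0.37 over the 10 members and of 0.18 over 12189 named genes. Of the 10, 9 lay above the median of all genes, with Hspd1 below it (0.16). The second probe of Hspd1 had an SD of 0.25, above that median. Hsph1 varied most, by 3.84-fold between its lowest and highest mouse, and 96.6% of named genes had a smaller SD. Serpinh1 spanned 3.73-fold, Hspb1 3.21-fold and Hspd1 1.91-fold, or 2.39-fold by its second probe. The Cy3 channel, the same RNA on every array, also varied, with a median SD of 0.21 over named genes. This SD was 0.50 for Hspa8 and 0.47 for Hspe1, where Cy5 had 0.38. In the other members it lay between 0.16 (Hsp90aa1) and 0.25 (Dnajb1). The part of the measurement in the spread was not tested.

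Part of this variation was shared between members. Over the 30 mice, 17 of the 45 pairs of members were correlated, all positively (Pearson, two-sided permutation test with 100000 resamples, adjusted p under 0.05 over the 45 pairs). Values of a pair come from the same array and so share its labelling and signal. How often pairs of other genes are correlated in this way was not counted, so the 17 of 45 have no background beside them. The 6 genes of the HSP70, HSP110, HSP40 and HSP90 families held 13 of these pairs, and r over their 15 pairs ran from 0.36 to 0.85. Hspa8 and its partner Dnajb1 had r = 0.82 (rho = 0.80, adjusted p = 9e-05 by permutation, from the smallest p the resamples can give) and Hsph1 and Hsp90aa1 had r = 0.76 (rho = 0.76). Hspa1b and Hsph1, whose promoters are shown above, had r = 0.76 (rho = 0.61), and Hspa1a and Hspa1b had r = 0.85 (rho = 0.83). Between Hspa1b and Hsph1 r was 0.39 within exposed mice, which did not pass (adjusted p = 0.336, n = 14, permutation), and 0.83 within control mice (adjusted p = 0.00045, n = 16, permutation).

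**Figure D4:**
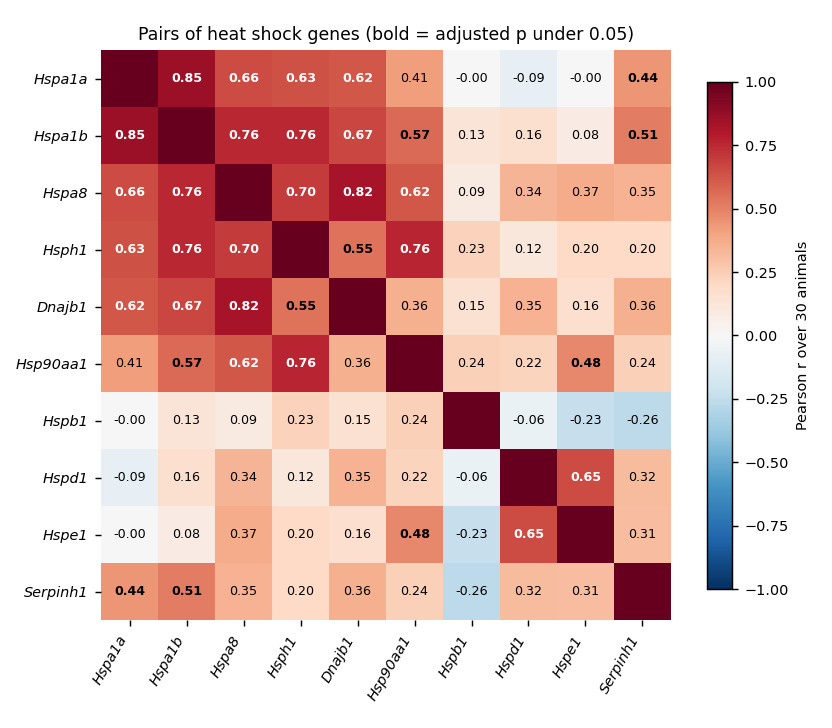
Pearson r of every pair of heat shock genes over 30 mice, from -1 (blue) to 1 (red), with bold figures where the adjusted permutation p is under 0.05. The upper left block of HSP70, HSP110, HSP40 and HSP90 genes is red, and the row of Hspb1 is pale.

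The pattern held within slides, where 13 of these 15 pairs passed with a median r of 0.71, and after run means were subtracted, where all 15 did with a median r of 0.73. Within exposed mice 4 of 15 passed (median r = 0.45, n = 14) and within control mice 12 of 15 (median r = 0.76, n = 16). Whether the groups differ in this was not tested. Among control mice, animals 547 and 598 were among the 5 highest of all 30 in all 6 genes, and animal 599 in 4 of the 6, as was animal 177 of exposed run 1. Hspa1a and Hspa1b again count as 2 of the 6. Hsph1 stood at -0.04 in animal 177 and at 0.45, 0.22 and 0.18 in animals 547, 598 and 599, while the other 13 exposed mice lay at or below -0.50. Hspa1b stood at -0.01 in animal 177 and at 0.79, 0.42 and 0.27 in animals 547, 598 and 599. These 3 control mice lay above every exposed mouse in both genes. Without 547, 598 and 599, a step added after the data had been seen, 9 of 15 pairs passed with a median r of 0.50. Without the 2 arrays farthest from the median of the first gene of a pair, 10 of the 45 pairs passed. Of 40 relations between the members and the Cirbp level, a clock phase score, the median Cy5 signal and the share of probes above background, 1 passed: Hsph1 with Cirbp (r = -0.58, rho = -0.49, adjusted p = 0.0316 by permutation), which was -0.52 without the 2 farthest arrays. Its rank correlation did not pass (adjusted p = 0.156 by permutation). Cirbp is an RNA-binding protein known to be induced by cold. With the log2 median Cy5 signal r was 0.43 for Serpinh1 and -0.43 for Hspb1, and neither passed (adjusted p = 0.15 for both by permutation). Within slides these were 0.08 and -0.29. The part of array signal in the calls of exposed run 1 was not tested.

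The mitochondrial pair Hspd1 and Hspe1, which share the stretch between their starts, moved together over the 30 mice (r = 0.65, rho = 0.55, adjusted p = 0.00085 by permutation). The lowest mouse in both was exposed animal 176 (-0.37 in Hspd1, -0.76 in Hspe1), and exposed animal 215 had the highest Hspd1 (0.57) with 0.33 in Hspe1. Without the 2 arrays farthest from the median the relation no longer passed (r = 0.42, adjusted p = 0.0775 by permutation), so it rests in part on those arrays. With processed Agilent signals it did not pass either (r = 0.35, adjusted p = 0.131 by permutation). Within exposed mice r was 0.90 (adjusted p = 0.00135, n = 14, permutation) and within control mice 0.21 (adjusted p = 0.594, n = 16, permutation). The difference between the groups was not tested.

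**Figure D5:**
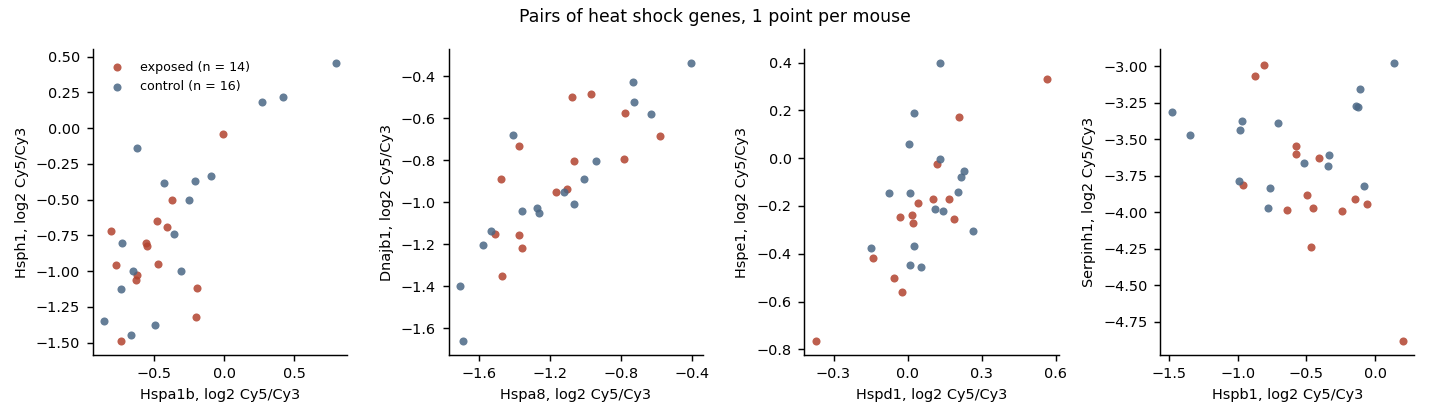
Log2 Cy5/Cy3 of 4 pairs of heat shock genes, 1 point per mouse, exposed (red, n = 14) and control (blue, n = 16). Hspa8 with Dnajb1 (r = 0.82) and Hspa1b with Hsph1 (r = 0.76) rise along a line over all mice, and Hspb1 with Serpinh1 (r = -0.26) does not.

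Hspb1 followed none of the other members over the 30 mice, with r from -0.26 with Serpinh1 to 0.24 with Hsp90aa1. Within exposed mice it ran against Serpinh1 (r = -0.74, adjusted p = 0.0262, n = 14, permutation), and within control mice r was 0.25 (adjusted p = 0.535, n = 16, permutation). After run means were subtracted r was 0.08 over the 30 mice (adjusted p = 0.76 by permutation), and exposed run 1 was the run called high in Hspb1 and low in Serpinh1. Outside the members, the gene most like Hsph1 was Chordc1, a partner of HSP90 (r = 0.91), followed by Cacybp (r = 0.87). Chordc1 was also the most like Hspa8 (r = 0.80), before Atp2a2 (r = 0.77), and the second most like Hspa1b (r = 0.78), after Ccdc127 (r = 0.78). The genes most like Hspd1 were Skp1 (r = 0.72) and Gabarapl2 (r = 0.72). These likenesses are over 30 arrays and describe them without a test.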

How the data were processed

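The authors deposited scanner files with foreground and background intensity per spot for both dyes, extracted with Agilent Feature Extraction 10.7.3.1 (25 arrays) or 10.1.1.1 (5 arrays), per the file headers. They also hold a log10 ratio of the dyes, per the file headers. The deposited value table holds log2 ratios of Cy5 over Cy3. On 15470 bright spots each of its 30 columns matched its own array best (r from 0.98 to 0.993, slopes from 0.837 to 0.929), and column medians lay between -0.045 and -0.021. Its own normalization is not given in the sources used here.

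Median signals were corrected by normexp (offset 50), normalized by loess within arrays with control spots at weight 0, and spots marked as outliers were left out, which removed 1008 probe values (limma 3.58.1, R 4.3.3). Probes with Cy5 well above background on at least 14 arrays were tested, 23607 in all, and for each gene the probe brightest in Cy5 on average stands for it. Symbols came from transcript accessions matched to RefSeq (GRCm38.p6), for 24375 of 41174 probes. Slide was a random block (correlation 0.159), and p-values were adjusted by Benjamini-Hochberg over all tested probes at 0.05. The number of arrays limits the precision. Labels do not say whether mice of a run shared a cage or day. In simulated data the group comparison recovered 96% of probes changed 1.5-fold and the exposed run 1 comparison 78%. The changed probes were drawn at random from all tested probes. The heat shock genes vary more than most genes, so these shares need not hold for them.

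A run is a stretch of animal numbers with no gap over 10. Genes outside the members were named if they passed, up to 4 per list and comparison, or as the 2 with the smallest p per list. The members and lists were chosen with earlier results of these data known. The clock phase score takes the mean of 6 genes (Per2, Per3, Dbp, Tef, Nr1d1, Nr1d2) and subtracts that of Arntl, Clock and Cry1, with every gene centred over all mice. Correlations used 100000 permutations (Python, numpy, scipy). Alternatives covered background, normalization, dye, filter, block, weights, covariates, control runs and leaving out each animal.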

Additional observations from a re-analysis of the deposited data

Results flagged for a closer look

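In 4 cases a value stood out. Control animal 547 was far above the other 5 mice of control run 1 in Hspa1b (0.79, against -0.66 to -0.25) and in Hspa1a (-0.0805, against -1.50 to -1.02). Both genes are near-identical, so these are not separate observations. In 60 groups of values tested in this way these 2 values of 1 mouse stood out, and chance gives about 1 in 20, or 3.

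Exposed run 1 differed from exposed run 2 in Hspb1 (0.61, adjusted p = 0.0232, limma) and in Serpinh1 (-0.77, adjusted p = 0.0243, limma), where 5.94% of probes differed between these runs. On the slides, exposed run 1 took position 3 only and exposed run 2 positions 3 and 4. With position as an added term neither gene passed between exposed run 1 and the control runs.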

How the results depend on the processing

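No paired analysis was possible because the groups share no animal numbers; the 7 slides that held both groups were matched by slide as a fixed block instead. Of 1276 values of members under 24 other settings, 1252 kept their side of the threshold, 15 lost and 9 gained a call, and none that passed changed sign, while 83 that did not pass did so. Leaving out 1 animal at a time left 2089 of 2100 in place. The count of members over all exposed mice, in exposed runs 2 and 3 and in the Cy3 channel was 0 in every setting run. In exposed run 1 it was 0 with median centring, the clock phase score as a covariate, array position as a term, the control run of the same order or control run 1 only, and 1 with Cy5 alone, slide as a fixed block, control runs 1 and 3 only or control run 3 only; without 1 animal it was 0 to 2. Among exposed runs it was 1 without background correction, with Cy5 alone, the deposited table, the filter on all arrays or no slide block, 2 with processed signals or array weights, and 0 to 2 without 1 animal. Among control runs it was 0 with median centring and 1 without any 1 animal. Correlated pairs numbered 7 within exposed mice and 10 without the 2 farthest arrays. Among other genes in exposed run 1, Cdc37 turned to 0.0357 with median centring, Unc45a to 0.0118 with Cy5 alone and Ttr to 0.5815 with processed signals. Of 609 values of named genes under other settings 183 lost their call, and of 930 without 1 animal 134 did. The causes were not tested. Signal limits Hspa1a and Hspa1b, above background on 29 of 30 arrays.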
